A study of Caenorhabditis elegans with 2 samples.

Results

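The Hsp70 and small heat shock genes described here are 10 genes of the 19985 annotated protein-coding genes of Caenorhabditis elegans. They are the cytosolic Hsp70 genes F44E5.4, F44E5.5, hsp-70 and hsp-1, the endoplasmic reticulum Hsp70 genes hsp-3 and hsp-4, and the small heat shock genes hsp-16.1, hsp-16.2, hsp-16.41 and hsp-16.48. The genes are a named list, chosen by the signal value of the region beside F44E5.4 together with family membership and with earlier results of the same lists known, so the values below are descriptions without tests. A gene was given every region whose summit, the middle of the region, lay in the gene body or within 2000 bases of an annotated transcript 5′ end on either side.

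The regions come from ChIP-seq, which pulls down DNA with an antibody to a chromatin protein and sequences it, of the homeodomain protein UNC-39 in whole L4 larvae. All larvae were of strain OP186, with the unc-119(ed3) III allele and the insertion wgIs186, which expresses UNC-39 with a GFP-FLAG tag at its C terminus, in pooled males and females. The samples are biological replicates 1 and 2 of 1 group, and the labels name no other strain, stage or treatment, so nothing below compares conditions, and the labels do not give the promoter or the cells in which the tagged protein is made. The optimal list of 63 regions was derived from the pooled and replicate lists by IDR, a method that asks how well ranks repeat between replicates, while the pooled list and each replicate list hold 30000 regions and include background by design. Read depth is unknown, and the column 7 signal value of a region, whose scale is not stated, was read only as a rank within its list, 1 being the strongest.

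Heat shock proteins are chaperones: Hsp70 proteins bind and release unfolded stretches of other proteins using ATP, and small heat shock proteins hold unfolding proteins without ATP. After heat, the transcription factor HSF-1 binds inverted and repeated copies of the 5 bases NGAAN, the heat shock element, and switches on F44E5.4, F44E5.5, hsp-70 and the hsp-16 genes, whereas hsp-1 is also made without stress. The BiP proteins HSP-3 and HSP-4 fold proteins in the endoplasmic reticulum, and hsp-4 is the usual marker of the unfolded protein response of that compartment.

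The strongest region at these genes lay between F44E5.4 and F44E5.5, which are transcribed away from each other. The middle 300 bases of the stretch between their starts, chrII:11759337-11759636 of ce11 on the plus strand, are shown because they hold the optimal summit and all heat shock units found there. Capitals mark GAANNTTC and TTCNNGAA, the head-to-head and tail-to-tail pairs of heat shock repeats, with N any base. Both words are their own reverse complements, so a search of 1 strand covers both, and they overlap each other where repeats follow one another.
F44E5.4 and F44E5.5: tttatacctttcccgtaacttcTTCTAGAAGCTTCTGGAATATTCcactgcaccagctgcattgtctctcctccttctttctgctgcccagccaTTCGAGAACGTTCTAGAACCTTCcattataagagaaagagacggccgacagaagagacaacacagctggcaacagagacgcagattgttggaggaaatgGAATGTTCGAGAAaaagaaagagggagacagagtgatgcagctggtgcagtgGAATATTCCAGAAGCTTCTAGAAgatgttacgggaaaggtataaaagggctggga

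The small heat shock genes form similar pairs. The whole stretch between hsp-16.2 and hsp-16.41, chrV:1804958-1805177, and the middle 300 bases between hsp-16.1 and hsp-16.48, chrV:9087807-9088106, are shown for contrast, on the plus strand of ce11 with the same capitals. Neither held the summit of a region in any list.
hsp-16.2 and hsp-16.41: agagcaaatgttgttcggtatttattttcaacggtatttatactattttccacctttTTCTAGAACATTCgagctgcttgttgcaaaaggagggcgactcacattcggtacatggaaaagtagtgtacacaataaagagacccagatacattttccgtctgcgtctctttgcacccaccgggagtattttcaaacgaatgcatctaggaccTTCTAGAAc
hsp-16.1 and hsp-16.48: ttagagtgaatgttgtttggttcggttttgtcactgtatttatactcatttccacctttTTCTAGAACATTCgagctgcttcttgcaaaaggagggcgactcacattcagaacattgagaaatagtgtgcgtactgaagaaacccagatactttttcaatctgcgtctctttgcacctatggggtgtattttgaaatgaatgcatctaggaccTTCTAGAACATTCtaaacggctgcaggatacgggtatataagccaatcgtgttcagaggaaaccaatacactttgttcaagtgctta

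Among the genes without an optimal region, hsp-1 and hsp-4 had their best pooled region within 500 bases upstream of the first start. The 201 bases around those summits, chrIV:17278441-17278641 and chrII:7352744-7352944 on the plus strand of ce11, are shown with the same capitals.
hsp-1 upstream: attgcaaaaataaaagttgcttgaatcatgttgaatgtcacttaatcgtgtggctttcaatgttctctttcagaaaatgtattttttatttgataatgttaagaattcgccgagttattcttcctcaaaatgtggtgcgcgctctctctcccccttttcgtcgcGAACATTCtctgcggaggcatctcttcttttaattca
hsp-4 upstream: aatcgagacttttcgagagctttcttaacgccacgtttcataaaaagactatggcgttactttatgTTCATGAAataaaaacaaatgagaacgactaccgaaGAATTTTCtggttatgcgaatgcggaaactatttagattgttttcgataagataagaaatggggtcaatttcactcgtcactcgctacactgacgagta

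F44E5.4 and F44E5.5 shared 1 optimal region, and none of the other 8 genes had one. This is 2 of 10 genes, against 0.4% of all protein-coding genes, and since that region helped to choose the list nothing is read from the difference. The region spanned chrII:11759255-11759654, with its summit at 11759455, 144 bases upstream of F44E5.4 and 207 bases upstream of F44E5.5. Its signal value was 35.1, which ranked 15 in the pooled and in the optimal list, where the lowest value was 24.4. Its −log10 q was 1.94, the highest value of the pooled list, held by 44 of the 63 optimal regions.

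Replicate 1 had a region at chrII:11759275-11759678 with a signal value of 25.9, ranked 6. Replicate 2 had one at chrII:11759250-11759649 with a signal value of 9.12, ranked 313. The replicate regions overlapped the pooled one by 380 bases in replicate 1 and 395 bases in replicate 2, and the replicate summits were 27 bases apart. Both libraries therefore placed a region over the same stretch, but high rank rested on replicate 1: the 63 strongest regions of replicate 2 held none of the 10 genes, whereas the 63 strongest of replicate 1 held both F44E5 genes. On the earlier build ce10 the optimal list had 53 regions, and 1 of them had the same chromosome and a signal value within 0.01 of that of the F44E5 region, with rank 15. The plot of best ranks by gene shows both genes at the same 3 points, left of all other members in every list.

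**Figure D1:**
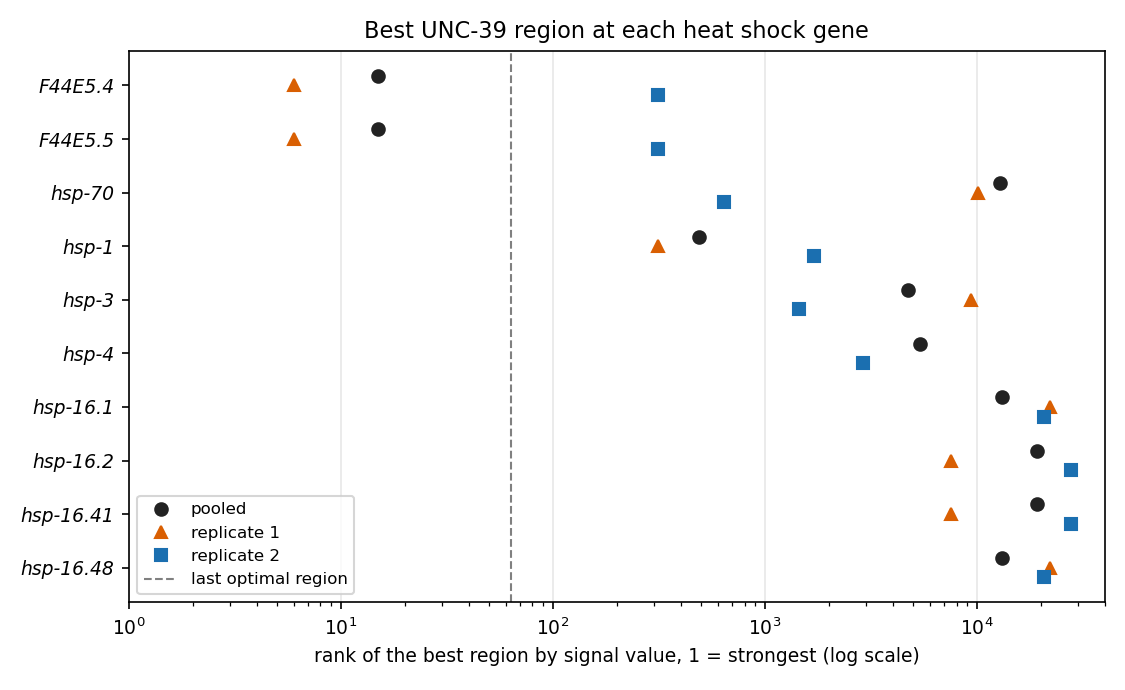
Rank of the strongest region at each of the 10 genes in the pooled list, replicate 1 and replicate 2 on a logarithmic axis, with the last optimal region (rank 63) as a dashed line. F44E5.4 and F44E5.5 share ranks 15, 6 and 313, hsp-1 follows at 487 in the pooled list, hsp-4 has no replicate 1 region, and the hsp-16 genes lie at 7551 or weaker.

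In the relaxed lists nearly every member had a region, as did most genes. A pooled region lay at 10 of 10 members, against 77.5% of all protein-coding genes and 72% of those no longer than hsp-3, the longest member with 3097 bases. A replicate 1 region lay at 9 of 10 members, against 77.5% of all genes, the exception being hsp-4. A replicate 2 region lay at 10 of 10 members, against 77.1%, and regions of both replicates, at the same place or not, at 9 of 10, against 63%. A replicate 1 and a replicate 2 region that overlapped lay at 6 members, since at hsp-70, hsp-16.2 and hsp-16.41 the replicate regions were apart. The 63% does not apply to this stricter count, for which no share over all genes is given. Because members share regions, these counts rest on 17 distinct pooled regions, 14 of replicate 1 and 14 of replicate 2.

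Ranks separate the members more than counts do. A pooled region of rank 2000 or stronger lay at 3 members, F44E5.4, F44E5.5 and hsp-1, against 10.2% of all genes, and the same 3 had one of rank 500 or stronger, against 2.86%. F44E5.4 and F44E5.5 share the region that helped to choose the list, so nothing is read from these differences. The median best pooled rank was 9109.5 over the members and 9610 over the 15490 genes with a pooled region. With 500 bases in place of 2000 it was 5455.5 over the 8 members that still had a region. hsp-16.1 and hsp-16.48, both at rank 13092, dropped out. No median over all genes is given at 500 bases, so 5455.5 is not to be set against 9610. In replicate 1 the median was 7551 over 9 members, against 9474 over all genes with a region, and in replicate 2 it was 2300.5 over 10 members, against 9722. Replicate 2 ranked hsp-70, hsp-3, hsp-1 and hsp-4 at 638, 1443, 1704 and 2897, whereas replicate 1 ranked hsp-1 at 312 and no other of these 4 better than 9374. Apart from F44E5.4, F44E5.5 and hsp-1, the best pooled ranks of the members ran from 4715 to 19129.

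**Figure D2:**
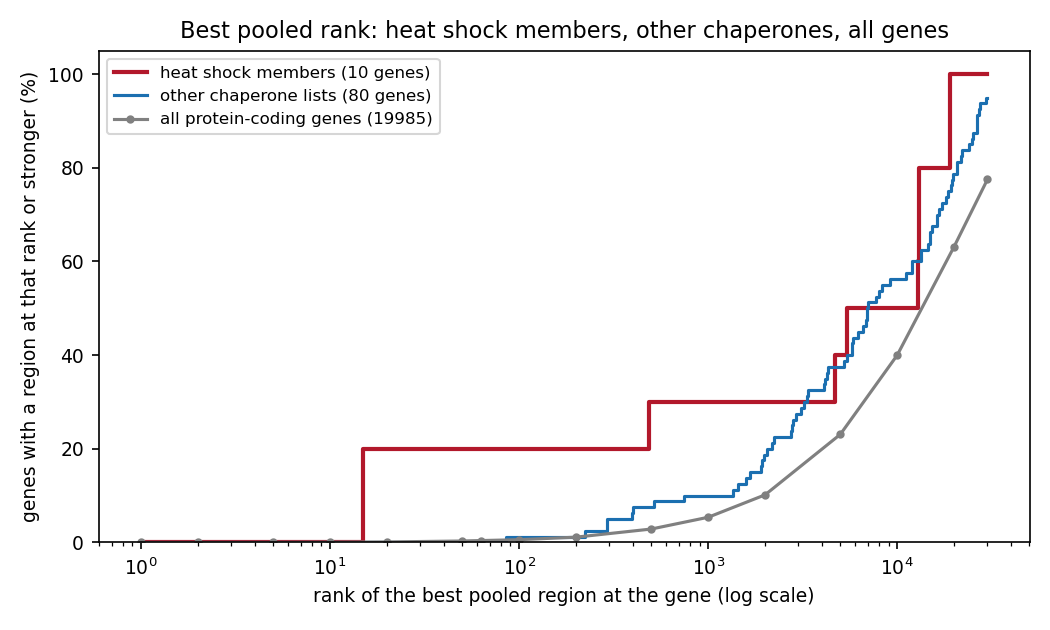
Percentage of genes with a pooled region at a given rank or stronger, for the 10 heat shock members, 80 other chaperone genes and all 19985 protein-coding genes, with rank on a logarithmic axis. The members' line steps up at rank 15, where F44E5.4 and F44E5.5 share a region, and at 487 for hsp-1, stays level up to 4715 and reaches 100% at 19129.

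Support by both replicates was given for 9 of the 17 distinct pooled regions at the members, against 30.7% of all pooled regions. The 9 include the F44E5 region, which helped to choose the list, and the hsp-1 regions of ranks 487, 1755, 5370, 12011 and 25209. Those of ranks 5370 and 12011 had the same best overlapping replicate ranks, 10293 in replicate 1 and 4394 in replicate 2. The 9 are therefore not independent. Replicate 1 overlapped 11 of the 17, against 20451 of 30000, and replicate 2 overlapped 14, against 16132 of 30000. The region with no replicate support, out of 2637 such pooled regions, lay 1605 bases beyond the nearest start of hsp-4, past the end of the gene, with rank 10773.

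F44E5.4 and F44E5.5 are a divergent promoter pair, here neighbouring protein-coding genes on opposite strands whose starts face apart with at most 2000 bases between them. F44E5.4 (WBGene00009691) occupies chrII:11757107-11759311 on the minus strand and F44E5.5 (WBGene00009692) chrII:11759662-11761861 on the plus strand, with 350 bases between them. Of 4 such pairs among the members, the F44E5 pair was the 1 with an optimal summit between the starts, against 0.401% of all 2496 pairs. A pooled summit lay between the starts in 2 of the 4, the F44E5 pair and the pair of hsp-3 with C15H9.5, against 26.6% of all pairs. The same 2 of 4 held for replicate 1, against 25.2%, and for replicate 2, against 25.3%. All these counts include the F44E5 pair, whose region helped to choose the list, so nothing is read from the differences.

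Among the 663 divergent pairs with a pooled summit between the starts, the F44E5 region was the third strongest, and the hsp-3 region was at place 180. The 10 pairs with an optimal summit had gaps of 350 to 1813 bases, and the F44E5 gap was the shortest, the next being 784 bases. Of the 610 pairs with at most 350 bases between the starts, 57 had a pooled summit there and the F44E5 pair was the 1 with an optimal summit. Regions of rank 500 or stronger in both replicates overlapped the optimal region of 4 of the 10 pairs: R107.5 and cls-2 (ranks 1 and 138 in replicates 1 and 2), nhl-2 and tag-340 (13 and 23), F44E5.4 and F44E5.5 (6 and 313), and dct-11 and puf-9 (55 and 17).

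The stretch between F44E5.4 and F44E5.5 held 14 heat shock units, 7 of each word, in 4 runs of overlapping units. The runs on the outer sides, TTCTAGAAGCTTCTGGAATATTC at chrII:11759359-11759381 and GAATATTCCAGAAGCTTCTAGAA at chrII:11759582-11759604, have 4 units each and are exact reverse complements. The 2 inner runs are TTCGAGAACGTTCTAGAACCTTC at chrII:11759431-11759453, with 4 units, and GAATGTTCGAGAA at chrII:11759530-11759542, with 2. The pooled summit lay 2 bases from the inner run with 4 units. Within 100 bases of the summit there were 10 units in the pooled list, 10 in replicate 2 and 6 in replicate 1. A TATAAA word, the core of a TATA box, lay 26 bases upstream of the F44E5.4 start and another 36 bases upstream of the F44E5.5 start, each reading towards its own gene.

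So many units around a summit were rare in these lists. Of the 17 distinct regions of the members, 5 had at least 1 unit no more than 100 bases from the summit, against 24.5% of pooled regions and 17.5% of optimal regions. The 5 were the F44E5 region, 2 upstream of hsp-1, and the upstream and a coding region of hsp-4. At least 4 units lay at 1 of the 17, the F44E5 region, against 74 of 30000 pooled regions (0.247%) and 2 of 63 optimal regions (3.17%). The second optimal region was the one between R107.5 and cls-2, with 4 units within 100 bases of its summit and pooled rank 3. The limit of 4 units was chosen after the values were seen. Of the 2496 divergent pairs, 0.441% had 4 or more units in the 201 bases around the middle between their starts.

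Regions with many heat shock units were found at strong and at weak ranks. The 74 regions with 4 or more units had a median pooled rank of 16963.5, against 15000.5 over all 30000, and 6 of the 74 (8.11%) ranked at 2000 or stronger, against 6.67% of all. Without the F44E5 region the median was 17486 and the share 6.85%. In all, 6 pooled regions had 10 or more units, and the other 5 had ranks of 5477 to 23563. Among these, the region with the most, 25 units, lay in introns of glb-33 and amn-1 and ranked 7512. A match of letters is a description and not a bound site, and HSF-1 was not measured in these samples.

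**Figure D3:**
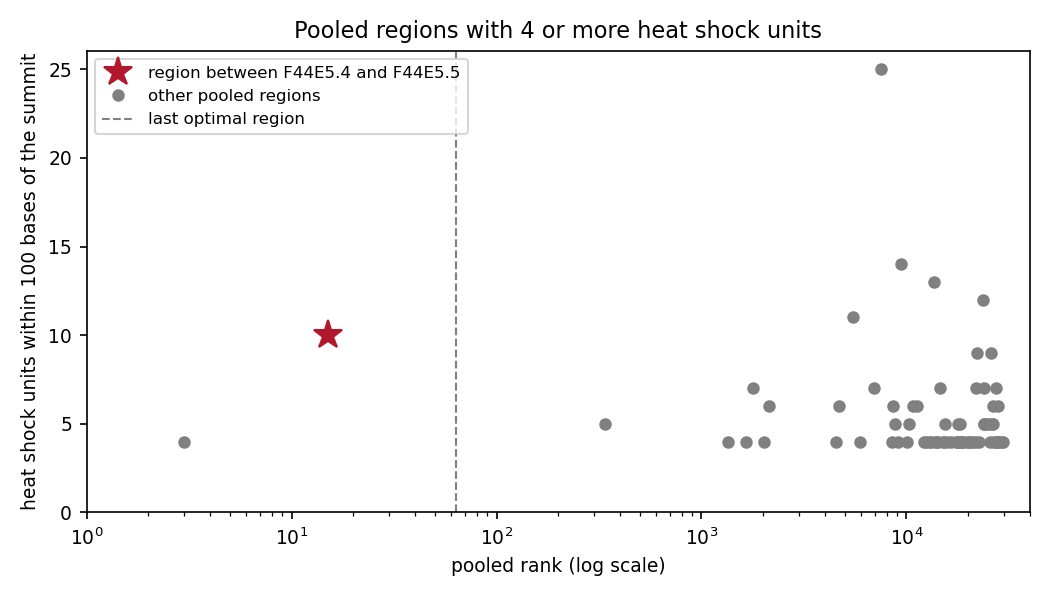
Number of heat shock units within 100 bases of the summit against pooled rank (logarithmic axis) for the 74 pooled regions with 4 or more units, with the last optimal region (rank 63) as a dashed line. The F44E5 region, a star with 10 units at rank 15, and 1 region with 4 units at rank 3 lie left of the line, and the other 72 lie right of it.

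Other short words were counted in the same 201 bases of each region and on both strands. The SIX4 and SIX5 type words TGACAC and TGATAC occurred in 1 region each of the 17 at the members, against 8.07% and 6.84% of pooled regions, and in no copy between F44E5.4 and F44E5.5. TGACAC lay in the region of pooled rank 12011 in an intron of clec-196 upstream of hsp-1, and TGATAC in that of pooled rank 24033 in an intron of hsp-3.

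Of the words that were frequent in optimal regions, GAGAGA occurred in 5 of the 17 regions at the members, against 13.1% of pooled and 42.9% of optimal regions, and CGTCTC in 2, against 6.79% of pooled and 39.7% of optimal regions, the second being a weak coding region of hsp-4. CGTCTC occurred in 2 copies between F44E5.4 and F44E5.5, both within 100 bases of the summit, beside 1 copy of GAGAGA. The word ACACAC was in 0 of the 17 regions, against 8.04% of pooled and 39.7% of optimal regions. The TATA word was in 2 of the 17, against 19.5% of pooled regions, and its 2 copies between the F44E5 genes lay more than 100 bases from the summit. The absence of a word says only that its letters are not in the window.

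F44E5.4 and F44E5.5 have identical coding sequences over all 1935 bases, so reads from inside them cannot be assigned to 1 gene. Of the 32-base words in the gene bodies, 1.84% in F44E5.4 and 1.94% in F44E5.5 occur once in the genome. Between the starts 81.8% of the words were single-copy, and in the region 70.7%, against a median of 100% over all pooled regions and 106 of 30000 pooled regions (0.353%) below 50%. The single-copy share was 76% in the outer 100 bases beside F44E5.4, 100% in the middle 150 bases and 35% in the outer 100 bases beside F44E5.5. The outer 100 bases of 1 side matched the reverse complement of the other in 87 of 110 aligned positions (79.1%). The summits of the pooled list and of both replicates lay in the middle stretch. How reads with several places in the genome were handled is not given in the sources used here, and its part in the height of the region was not tested.

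The hsp-16 genes encode small heat shock proteins of the alpha-crystallin family and lie on chromosome V as divergent pairs. hsp-16.2 occupies chrV:1804334-1804957 on the minus strand and hsp-16.41 chrV:1805178-1805875 on the plus strand, with 220 bases between them. Their best pooled region, shared by both, lay at chrV:1804639-1805038 with a signal value of 6.93 and rank 19129. Its summit was in a coding exon of hsp-16.2, 119 bases outside the stretch between the outermost starts, of which the region covered 81 bases. hsp-16.2 has 2 annotated starts, and the summit lay 31 bases downstream of the nearest one. Replicate 1 had an overlapping region of rank 7551 and signal value 6.78 that covered 122 of the 220 bases. Its summit lay 8 bases upstream of the nearest hsp-16.2 start. The nearest summit of replicate 2 was 772 bases away, in a region of rank 27729 and signal value 2.38. These signal values lay below the list's median in the pooled list (7.61) and in replicate 2 (3.45), and above it in replicate 1 (5.39).

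Sequence between hsp-16.2 and hsp-16.41 was 98.9% single-copy and held 3 heat shock units in 2 runs, the longer being TTCTAGAACATTC. No summit lay between the outermost starts, though both the F44E5 and the hsp-16 stretches are short, divergent and hold heat shock units. The F44E5 and hsp-16.2 stretches differ in the number of units, 14 against 3, in length, 350 against 220 bases, and in GC content, 46.9% against 40.9%. They also differ in CGTCTC, 2 copies against 1, and in GAGAGA, 1 against 0. Whether any of these bears on the regions was not tested.

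hsp-16.1 occupies chrV:9087293-9087782 on the minus strand and hsp-16.48 chrV:9088131-9088617 on the plus strand, with 348 bases between them. A second copy of the pair, hsp-16.49 and hsp-16.11, lies next to it in the opposite order, with coding sequences identical to hsp-16.48 over 429 bases and to hsp-16.1 over 435 bases. All 310 bases between the starts of the second copy matched in the alignment with the 348 bases of the first, with gaps and no mismatch. The unmatched bases lay on the hsp-16.1 side, where a TATAAA word was 63 bases from the hsp-16.1 start and 25 from that of hsp-16.11. On the other side a heat shock unit was 99 bases from the start in both copies. No deletion is read from the gaps, since the stretches end at the annotated starts. None of the 32-base words between hsp-16.1 and hsp-16.48, within either gene, or between hsp-16.49 and hsp-16.11 was single-copy, whereas 3.46% of all divergent stretches fell below 50%. The stretch between hsp-16.1 and hsp-16.48 held 4 heat shock units in 2 runs, each TTCTAGAACATTC, the same 13 bases as between hsp-16.2 and hsp-16.41.

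No region of any list covered a base between hsp-16.1 and hsp-16.48. The nearest pooled summit was 1269 bases away, beyond the 3′ end of hsp-16.1, in a region of 100% single-copy words with a signal value of 7.99 and rank 13092. Replicate 1 ranked its overlapping region 22170 and replicate 2 ranked its own 20590, with signal values of 4.53 and 2.91. By the distance rule this 1 region was counted for both hsp-16.1 and hsp-16.48. Since no word of the pair is single-copy, a lack of binding and reads that were not placed cannot be told apart here. Between the more distant pairs, hsp-16.1 and hsp-16.2 were identical at 90.6% of coding positions and hsp-16.48 and hsp-16.41 at 92.1%.

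**Figure D4:**
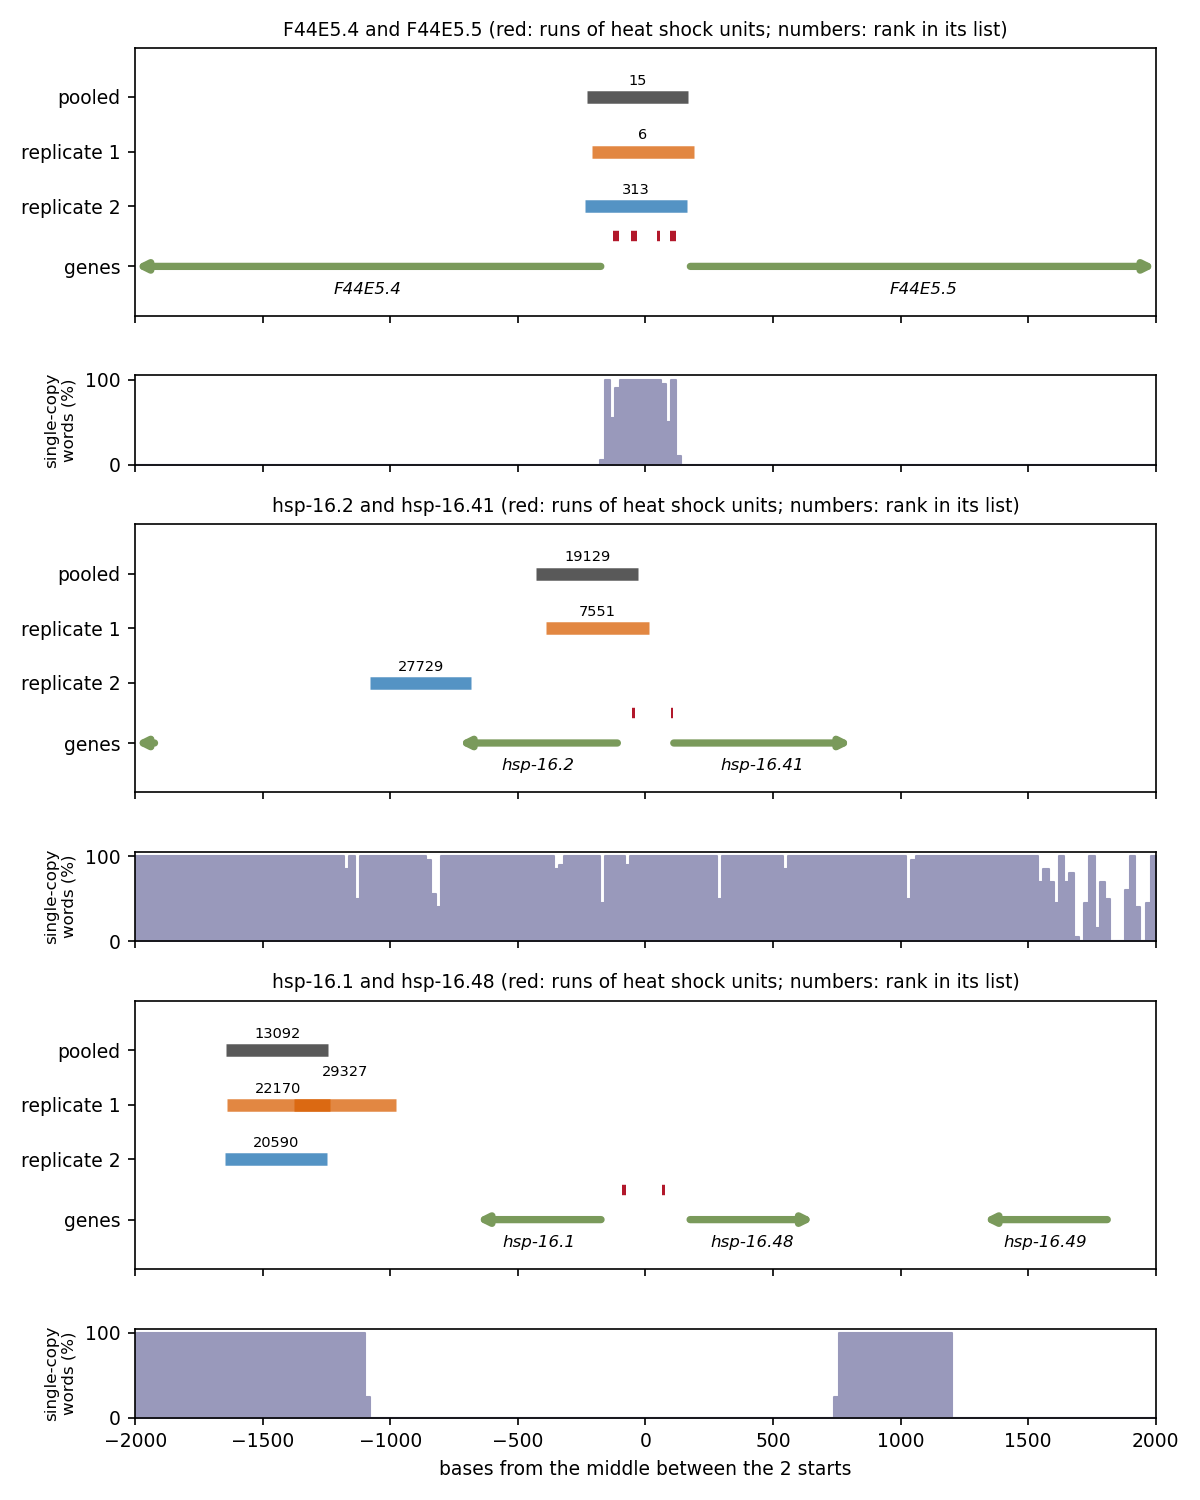
Regions of the pooled list and of replicates 1 and 2 (bars, with the rank in the list above each), runs of heat shock units (red) and genes (arrows in the direction of transcription) by distance in bases from the middle between the starts of 3 divergent pairs, each over the percentage of single-copy 32-base words per bin. Regions of all 3 lists stack over the stretch between F44E5.4 and F44E5.5, of which the middle 150 bases are fully single-copy. Between hsp-16.2 and hsp-16.41 the pooled and replicate 1 regions lie to 1 side, and the replicate 2 region does not reach the stretch. No region lies between hsp-16.1 and hsp-16.48, where no word is single-copy.

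hsp-1 encodes the constitutive cytosolic Hsc70 and occupies chrIV:17278959-17281330 on the plus strand. It had 6 pooled regions, the most of any member. The strongest lay at chrIV:17278341-17278740, 418 bases upstream of the start, with a signal value of 16.3 and rank 487. Replicate 1 had 2 overlapping regions there, with ranks 312 and 406, whereas the overlapping region of replicate 2 had rank 16779 and a signal value of 3.26. The gene F26D10.23, which is not annotated as protein-coding, covered the summit of the replicate 1 region with rank 312. In its last exon, in the untranslated part, hsp-1 had a pooled region of rank 1755 with a signal value of 13.0, ranked 10543 in replicate 1 and 1704 in replicate 2. The replicates thus put the strongest region of hsp-1 at opposite ends of the gene. The other 4 pooled regions ranked 5370, 7661, 12011 and 25209, and the sequence around the strongest summit held 1 heat shock unit. The coding sequence of hsp-1 matched that of F44E5.4 in 65.8% of aligned positions, gaps included, and 97.1% of words in the hsp-1 gene were single-copy.

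hsp-3 encodes a BiP of the endoplasmic reticulum and occupies chrX:6089028-6092124 on the minus strand, 1175 bases from the divergent gene C15H9.5. Its strongest pooled region lay between these starts, 972 bases upstream of hsp-3, with a signal value of 10.6 and rank 4715. Replicate 2 had an overlapping region of rank 1443, and replicate 1 had none, its summit between the starts being 24 bases upstream of hsp-3 with rank 22654. A region in a coding exon of hsp-3 ranked 5508 in the pooled list, 9374 in replicate 1 and 18497 in replicate 2. The third pooled region, in an intron, ranked 24033. Regions of rank 22212 in replicate 1 and 2309 in replicate 2 overlapped it, by 335 and 136 bases, and both had their summits in coding exons. No heat shock unit lay within 100 bases of these summits or between the starts.

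hsp-4, the other BiP gene, occupies chrII:7350112-7352645 on the minus strand, and its coding sequence matched that of hsp-3 in 77.3% of aligned positions. Its strongest pooled region lay 199 bases upstream of the first start, with a signal value of 10.25 and rank 5403, and 2 heat shock units within 100 bases of the summit. A region in a coding exon followed at rank 6230. Replicate 2 ranked its region over the upstream one at 17741 and that over the coding exon at 2897, the reverse of the pooled order. Replicate 1 had no region at hsp-4 by the distance rule.

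**Figure D5:**
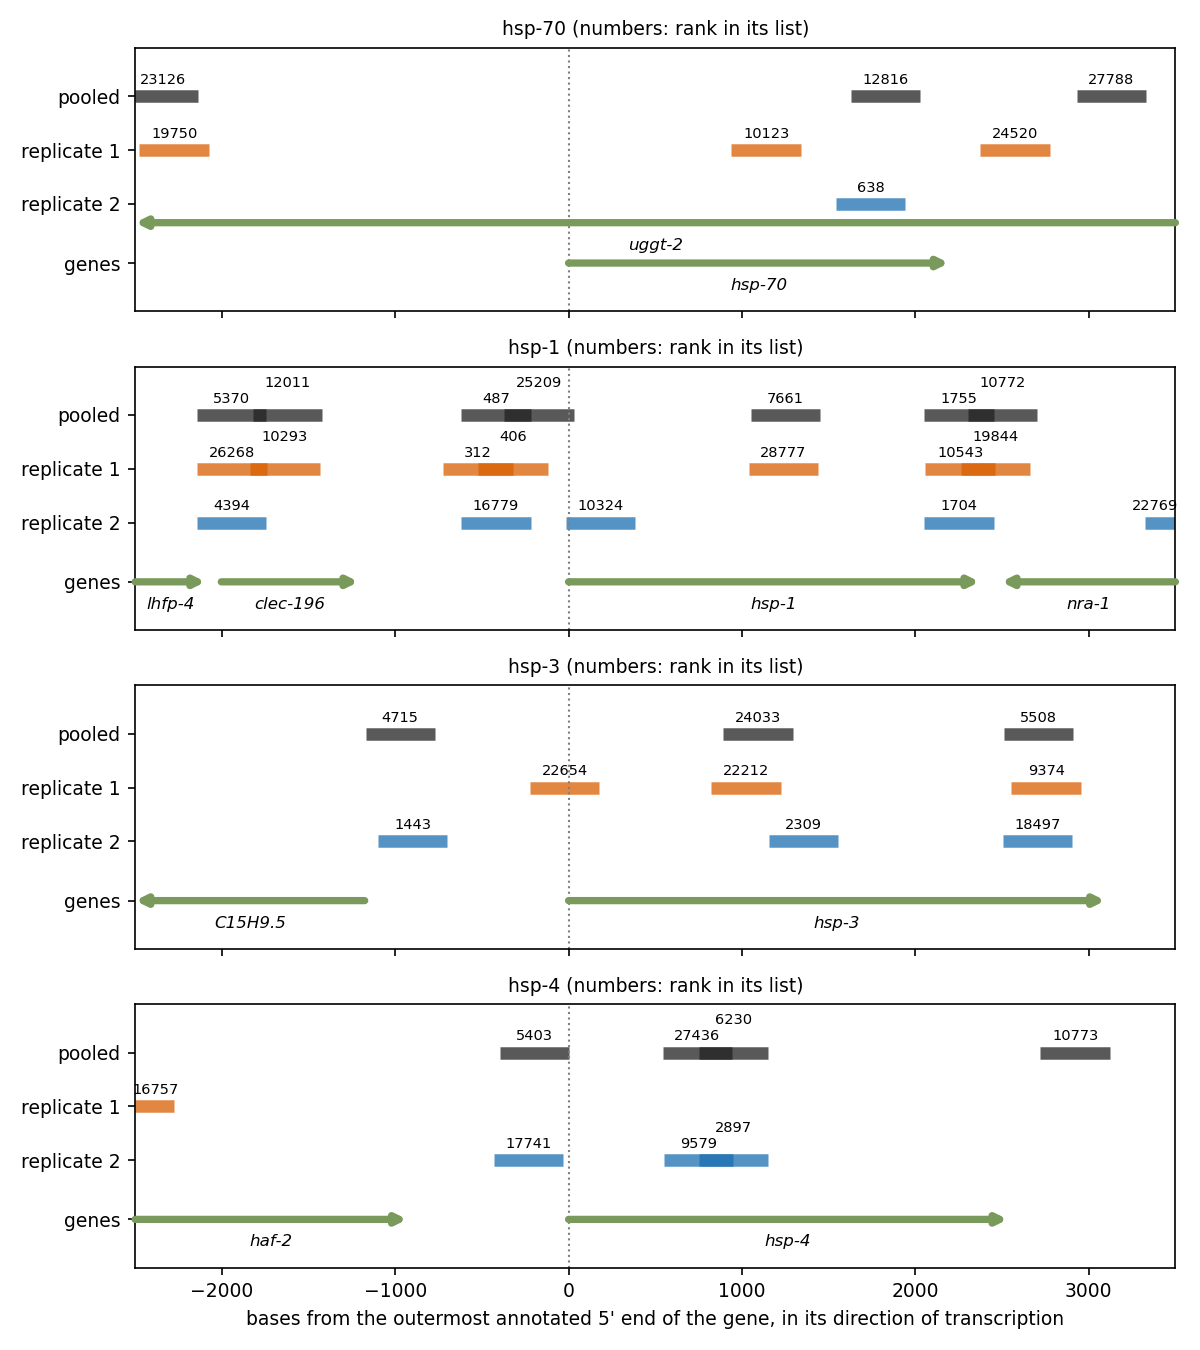
Regions of the pooled list and of replicates 1 and 2 (bars, with the rank in the list above each) and protein-coding genes (arrows in the direction of transcription) around hsp-70, hsp-1, hsp-3 and hsp-4, by distance in bases from the outermost annotated 5′ end. At hsp-1 the region 418 bases upstream ranks 487 in the pooled list and the one at the 3′ end 1755, and hsp-4 has no replicate 1 region within the distance used.

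hsp-70 (WBGene00002026), a heat-inducible cytosolic Hsp70, occupies I 9320325 to 9322519 on the minus strand and lies in an intron of uggt-2, which is transcribed from the other strand. Its coding sequence matched that of F44E5.4 in 80.3% of aligned positions, and 99.95% of its words were single-copy. The pooled region lay in a coding exon, 1826 bases into the gene, with a signal value of 8.05 and rank 12816. Replicate 2 had a region of rank 638 and signal value 8.08 that overlapped it by 317 bases. Replicate 1 had a region of rank 10123 elsewhere in the coding sequence, 1139 bases into the gene, that overlapped neither. No list had a summit within 2000 bases upstream of hsp-70, the position of the optimal region at the F44E5 genes.

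Of 80 other chaperone and stress genes in 7 lists written from gene names, 0 had an optimal region, against 0.4% of all genes, and 76 had a pooled one, against 77.5%. Regions of rank 2000 or stronger lay at 15 of the 80, against 10.2% of all genes, and of rank 500 or stronger at 6, against 2.86%. Their median best pooled rank was 6846, against 9610. The counts of each list at rank 2000 or stronger below stand against the same 10.2%. Replicate ranks of these genes are the best of each gene, and overlap with the pooled region was not checked. Among 6 other Hsp70 relatives, all had a pooled region and 0 ranked at 2000 or stronger. The strongest there was hsp-110, a nucleotide exchange factor for Hsp70, at 3115 in the pooled list, 2434 in replicate 1 and 2498 in replicate 2.

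Of 12 other small heat shock genes, 12 had a pooled region and 4 one of rank 2000 or stronger, and their median best rank was 16686.5. The best rank, 290, was shared by F08H9.3 and F08H9.4, both small heat shock genes of the hsp-16 kind, through a region in a coding exon of F08H9.3, which RefSeq calls hsp-16.20, with a signal value of 17.8. The best region at either gene ranked 77 in replicate 2 and 4559 in replicate 1, at the same place or not. The second copies hsp-16.11 and hsp-16.49 shared a pooled region of rank 26483.

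Among the 13 Hsp90 genes and partners, 3 ranked at 2000 or stronger, led by hsp-90 itself, the cytosolic Hsp90, at 401 in its coding exon. The best region at hsp-90 ranked 3630 in replicate 1 and 1202 in replicate 2, at the same place or not. Of 9 chaperonin genes 4 ranked at 2000 or stronger. They were led by hsp-60, the mitochondrial chaperonin, with a pooled region 611 bases upstream at rank 85 and a signal value of 22.7. This value was the closest of the 80 genes to the optimal limit of 24.4. The best region at hsp-60 ranked 272 in replicate 1 and 505 in replicate 2, again at the same place or not. Of 29 DnaJ genes, which encode partners of Hsp70, 25 had a pooled region and 2 ranked at 2000 or stronger, led by dnj-25 at 517. Of 7 genes of the unfolded protein responses 2 did, led by atfs-1, the mitochondrial stress transcription factor, at 741. Of 4 regulators of the heat shock response 0 did, and the best was ddl-1 at 5797, with hsf-1, the heat shock factor gene, at 18066.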

How the data were processed

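The deposited files are region lists in narrowPeak form. Per the labels' notes, the list of a replicate rests on its own alignments plus 1 further file, the pooled list on both sets of alignments plus the same file, and the optimal list on the pooled and replicate lists by IDR. For the aligner, peak caller, IDR threshold and read depth, the sources used here give nothing. The signal value (column 7) and the −log10 q (column 9) of each region are the authors' deposited values. They were used to describe and rank regions within a list.

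Lists on ce11 were set against the WBcel235 genome and Ensembl genes, after their coordinates were checked against its chromosome lengths. Lists on ce10 were not placed on it. All 10 members were matched by RefSeq symbol, because the Ensembl symbols hsp-16.1 and hsp-16.48 name 2 gene identifiers each. Sequences were read from the RefSeq genome of the same assembly. A single-copy word is a 32-base word found once in the genome on both strands. Identities come from global alignments. The members, the gene lists and the alternatives were chosen with earlier results of these data known. All members were named, and of the other lists the gene with the best pooled rank, in the absence of optimal regions. hsf-1 and the second hsp-16 copies were added after their values were seen, as were genes that serve to place a region. With 1 group of 2 samples no test was made. Searches were tested on simulated regions. Scripts ran under Python 3.11.15 with Biopython 1.88, pandas 2.3.3, numpy 2.4.6 and matplotlib 3.10.9.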

Additional observations from a re-analysis of the deposited data

How the results depend on the processing

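Of 62 alternative values, 54 were unchanged or within the margin set for them (1.5 times for counts) and 8 moved. With 500 bases in place of 2000, 6 members had a replicate 2 region (10 before) and 5 had regions in both replicates (9 before). The median best pooled rank was 5455.5 (9109.5 before). That move was counted as unchanged because it lay within the standard deviation of the replicate medians, 3712.66, which rests on 2 values. Over all genes no share or median is given at 500 bases. Whether these changes are particular to the members therefore cannot be told. Where the replicate regions had to overlap by 1 base, 6 members had them in place of 9, again without a share over all genes. With the strongest regions of a single replicate in place of the pooled or optimal list, 0 to 2 members had a region among the 63 strongest, 3 to 5 ranked at 2000 or stronger, and the median best rank was 2300.5 to 7551. The values 0, 5 and 2300.5 came from replicate 2 alone. With divergent gaps of at most 1000 bases, 1 member pair held a pooled summit in place of 2, because the hsp-3 gap was left out. With 50-base words, 98.3% of the F44E5 stretch was single-copy. Ranking by column 9 moved hsp-4 to 5062 from 5403. No paired analysis was possible because there is 1 group. With 2 samples and no read counts, the spread of a rank could not be given.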
